A study of Mus musculus with 5 samples.

Results

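The interferon-stimulated genes are the genes that cells switch on when interferon reaches them, and 39 of them were followed here across whole-lung arrays of 5 mouse strains. Probe sets were taken where the platform annotation gave a listed gene as their single symbol, which held for 57 of 45101 probe sets and 37 of the 39 genes. Isg15 and Ifi44 had no such probe set and have no value here. Of the 37 genes, 34 reached an intensity of 64, used as the floor of expression, in at least 1 array, against 11500 of 18194 genes in all. The antiviral GTPase genes Mx1, at 24.1 to 30.6, and Mx2, at 45.5 to 59.6, and the oligoadenylate synthetase gene Oas3, at 14.7 to 14.8, stayed under it.

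All mice were female and naive, and none had been given elastase, the enzyme used to bring on emphysema in mice. C57 was C57BL/6J. The 4B(+/+) and 4B(-/-) mice were wild type and knockout for the phosphodiesterase PDE4B, and the 4D(+/+) and 4D(-/-) mice likewise for PDE4D, both enzymes that break down cyclic AMP. All 4 lines came from a C57BL/6 × 129/Ola background and had been crossed back to C57BL/6J for 11 or more generations. Each strain was represented by 1 array, hybridised with RNA mixed from 3 of 5 lungs, so differences between strains were not replicated and none was tested. Below, a gene is called higher or lower at a difference of at least 1.5-fold.

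Type I and type III interferons act through JAK kinases on a transcription factor complex that includes STAT2 and IRF9 and binds the interferon-stimulated response element (ISRE). Interferon gamma also acts through JAK kinases, and its targets carry the gamma-activated site (GAS). The induced proteins sense viral RNA, block viral entry, translation and replication, and trim antigens for presentation. In healthy lung many of these genes are active at a basal level without infection.

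RefSeq promoter windows (GRCm38.p6), from 250 bases before to 50 after each start site, were found for 31 of the 39 genes. The ISRE core, written as GAAA, any 2 bases and GAAA again and searched on both strands, was present in a window of 16 of these 31 genes, 51.6%, against 3.99% of all 27025 genes with a window. The GAS letters TTCNNNGAA, which read the same on both strands, were present in 10 of the 31, 32.3%, against 9.55% of all genes. A match is a description of letters and not of a bound site. The 200 bases before the start site are printed for 4 genes on which the results below turn, from Ifit3 with 2 ISRE cores, Oas1a with 2 that share bases, Ifitm1 with none, and the upstream one of the 2 Irf8 windows, with 2 GAS matches. Capitals mark the ISRE core in the Ifit3 and Oas1a sequences and the GAS letters in the Irf8 sequence. Ifi27l2a, the gene that varied most, was not among the windows.
Ifit3, chr19:34583329-34583528, plus strand: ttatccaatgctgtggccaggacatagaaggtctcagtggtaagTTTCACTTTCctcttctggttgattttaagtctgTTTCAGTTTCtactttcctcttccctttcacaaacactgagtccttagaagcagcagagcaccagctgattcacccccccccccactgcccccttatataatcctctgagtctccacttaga
Oas1a, chr5:120907526-120907725, minus strand: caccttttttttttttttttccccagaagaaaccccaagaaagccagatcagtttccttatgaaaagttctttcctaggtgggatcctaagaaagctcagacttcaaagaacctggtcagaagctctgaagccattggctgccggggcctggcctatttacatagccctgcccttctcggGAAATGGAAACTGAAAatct
Ifitm1, chr7:140967876-140968075, plus strand: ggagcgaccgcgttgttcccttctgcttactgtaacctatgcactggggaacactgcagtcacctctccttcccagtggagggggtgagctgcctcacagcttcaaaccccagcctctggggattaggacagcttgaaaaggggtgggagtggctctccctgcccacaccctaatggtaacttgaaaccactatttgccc
Irf8, chr8:120736158-120736357, plus strand: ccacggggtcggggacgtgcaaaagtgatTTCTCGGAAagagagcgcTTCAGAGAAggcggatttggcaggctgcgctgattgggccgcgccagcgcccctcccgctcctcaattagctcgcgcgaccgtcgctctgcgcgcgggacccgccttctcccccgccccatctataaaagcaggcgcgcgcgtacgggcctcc

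Median intensities of the arrays lay between 45.4 and 46.6, which RMA makes nearly equal by construction. As a check of the tissue label, all 6 lung epithelial markers were over the floor in every array. The targeted genes still gave signal in their knockouts. For Pde4b, which has 3 probe sets over the floor, the brightest gave 457 in 4B(-/-), inside the range of the remaining strains (438 to 558). The other Pde4b probe sets were lowest in 4B(-/-), at 397 against 461 to 490 and at 164 against 199 to 258. Pde4d had 386 in 4D(-/-) against 456 to 523. Where the probes lie relative to the deleted parts is not known here, so these values do not check the labels. The ratio of 3' to 5' signal of the Gapdh control, a sign of RNA quality, was 1.72 in C57, 1.37 in 4B(+/+), 1.57 in 4B(-/-), 1.31 in 4D(+/+) and 1.77 in 4D(-/-). That of the actin control was 1.88, 1.62, 1.79, 1.83 and 1.86 in the same order of strains. Sums of markers of tissues beside the lung were uneven, with skeletal muscle at 27984 in 4D(+/+) and 2937 to 6348 elsewhere.

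Most interferon-stimulated genes stood at nearly the same level in all 5 strains. The ratio of the highest to the lowest array had a median of 1.22 over the 34 genes, and of 1.22 over all 11500 genes as well. It reached 1.5 in 3 of the 34, namely Ifi27l2a, Ifit3 and Ifitm1, or 8.82%, where 13.8% of all genes did. Ifi27l2a at 2.72 and Ifit3 at 1.99 lay above the 95th percentile of all genes, 1.81, and Ifitm1 lay below it at 1.70. The other 31 ran from 1.01 for Oasl1 to 1.48 for Oas1a.

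**Figure D1:**
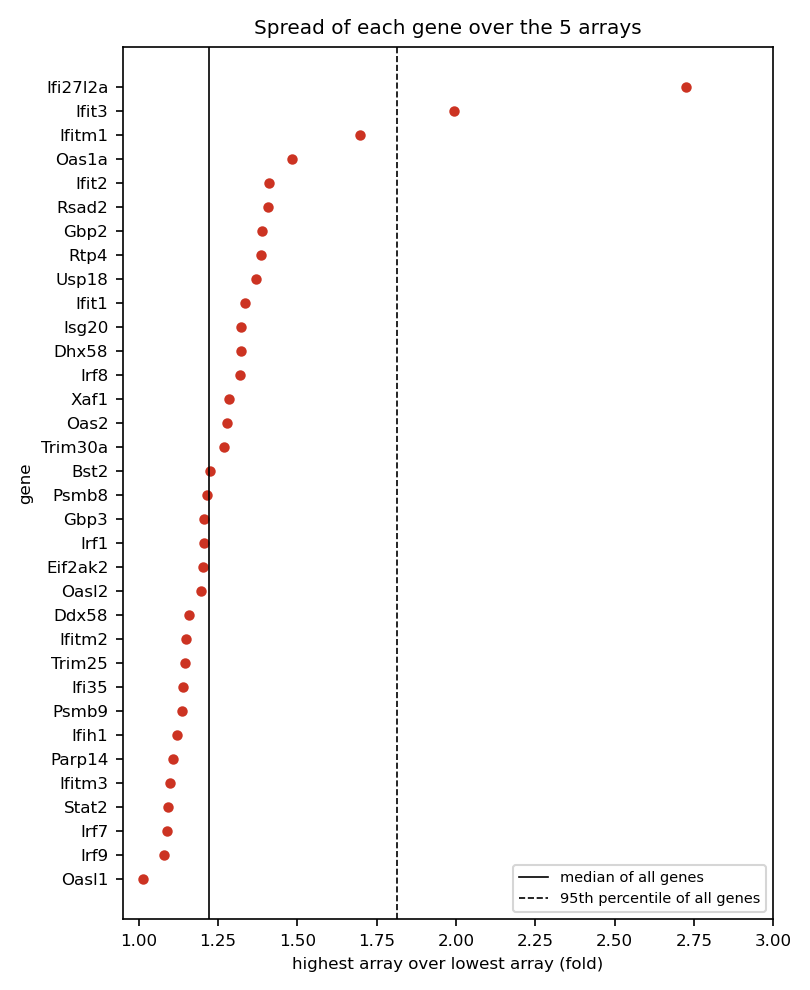
Ratio of the highest to the lowest of the 5 arrays for each of 34 interferon-stimulated genes (points, fold on the x axis), with the median (1.22, solid line) and the 95th percentile (1.81, dashed line) of all 11500 genes over the floor. Ifi27l2a and Ifit3 lie beyond the dashed line.

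Counts of the array in which each gene was highest or lowest stood apart from all genes mainly in the wild-type lines. Of the 34 genes 11 were highest in 4B(+/+), 32.4%, against 10.8% of all genes, and 0 were lowest there, against 10.2%. In 4D(+/+) 0 of the 34 were highest, against 14.9% of all genes. The 4D(-/-) array was lowest for 13 of the 34, or 38.2%, against 29.9% of all genes. C57 was highest for 10, or 29.4%, against 26.0%. The 4B(-/-) array was highest for 7, or 20.6%, against 28.4%, and lowest for 8, or 23.5%, against 18.9%. The counts for 4D(-/-), C57 and 4B(-/-) lay nearer the shares of all genes. Genes that share a regulator and an array are not independent, so these counts describe the arrays.

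**Figure D2:**
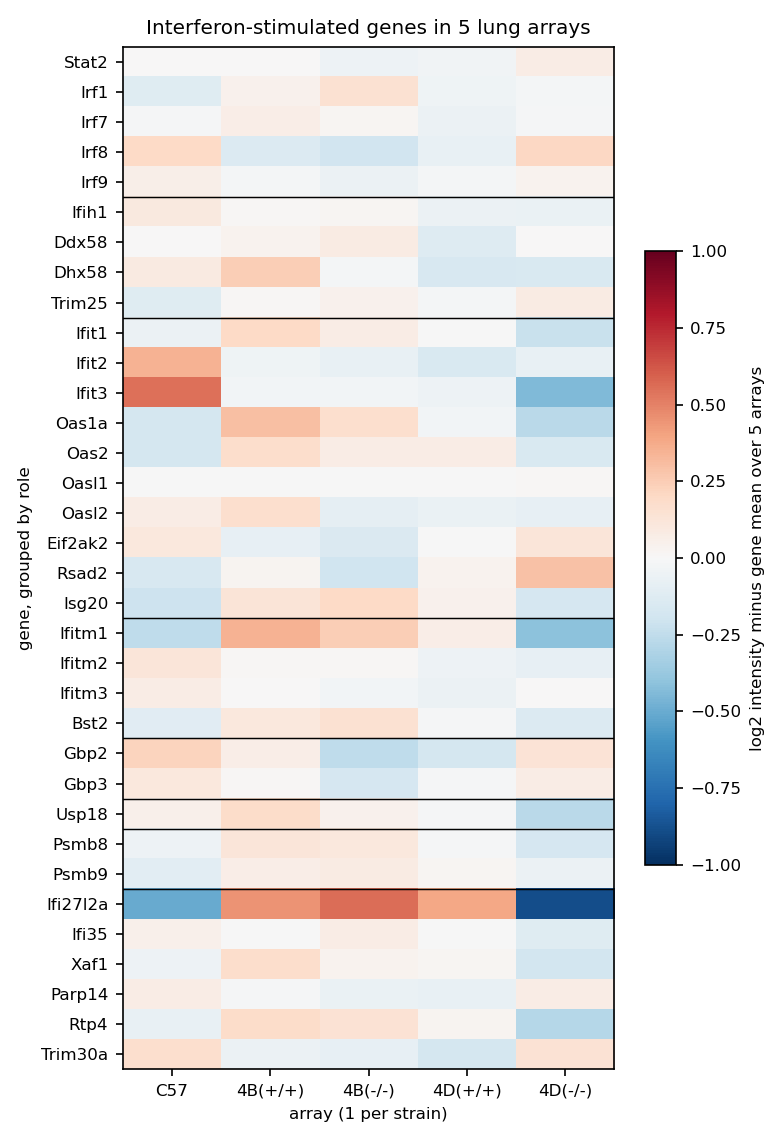
Log2 intensity of 34 interferon-stimulated genes (rows, grouped by role and divided by lines) in the 5 arrays (columns), minus each gene's mean over the arrays, from blue (lower) to red (higher). Ifi27l2a and Ifitm1 are lowest in 4D(-/-) and C57, Ifit3 and Ifit2 are highest in C57, and Irf8 is highest in 4D(-/-) and C57.

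Among the transcription factors, the parts of the ISRE-binding complex hardly varied. Stat2 read 60.4 to 66.0, partly under the floor, and Irf9, its DNA-binding partner, 341 to 368. Irf7, which amplifies the interferon response, read 119 to 129. All 3 varied by at most 1.09-fold. Irf1, induced by interferon gamma, read 1176 in C57, 1317 in 4B(+/+), 1419 in 4B(-/-), 1241 in 4D(+/+) and 1260 in 4D(-/-), so that 4B(-/-) was 1.21-fold above C57.

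Irf8 was the transcription factor with the widest spread, and it is named for this after its values were seen. It directs the development of dendritic cells and monocytes and is also active in B cells. It read 341 in C57, 271 in 4B(+/+), 261 in 4B(-/-), 282 in 4D(+/+) and 345 in 4D(-/-). C57 and 4D(-/-) were thus the high arrays, and 4D(-/-) stood 1.22-fold above 4D(+/+). A second Irf8 probe set gave 290, 245, 214, 245 and 312 in the same order of strains, with the same arrays high. B-cell markers were uneven across the same arrays. The sum of the 4 B-cell markers over the floor, of 6 measured and 7 listed, was 1250 in C57, 803 in 4B(+/+), 733 in 4B(-/-), 813 in 4D(+/+) and 1065 in 4D(-/-). The defining B-cell genes Cd79a and Pax5 were under the floor on every array. Conventional dendritic cell markers, 6 over the floor of 8 listed, summed to 842, 791, 763, 786 and 873 in the same order, with Xcr1 under the floor. Alveolar macrophage markers, 6 over the floor of 7 listed, summed to 9193, 8969, 8079, 7172 and 10439, and those of monocytes and interstitial macrophages, 5 of 6 listed, to 4325, 4366, 3974, 3974 and 4660. All 3 of these myeloid sums were highest in 4D(-/-), as Irf8 was, and the B-cell sum was highest in C57. Most of the alveolar macrophage sum was Chil3, at 5291 to 8183, and most of the monocyte sum was Csf1r, at 2434 to 3104. Among the single myeloid genes over the floor, Flt3, Ccr7, Ccr2, Cx3cr1 and Car4 were highest in C57. Cd209a was highest in 4D(+/+), Batf3 in 4B(+/+), and C1qa read 664 in every line. The others were highest in 4D(-/-). Plasmacytoid dendritic cell markers, 4 over the floor of 7 listed, went the other way, at 915 in C57, 1151 in 4B(+/+), 1449 in 4B(-/-), 2109 in 4D(+/+) and 1024 in 4D(-/-). Most of that sum was Cox6a2, at 544 to 1699, and the defining genes Siglech and Pacsin1 were under the floor. The part of these cells in the Irf8 values was not tested, and in whole tissue fewer cells of a type and less RNA per cell cannot be told apart.

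The cytosolic RNA sensors were also steady. Ifih1, which encodes MDA5, read 734 to 822, and Ddx58, which encodes RIG-I, 338 to 391. Trim25, the ubiquitin ligase of RIG-I, read 1479 in C57, 1615 in 4B(+/+), 1656 in 4B(-/-), 1587 in 4D(+/+) and 1696 in 4D(-/-). Dhx58, which encodes the related helicase LGP2, lay close to the floor at 59.4 to 78.5, with the highest value in 4B(+/+). Its ratio of 1.32 rests on weak signal.

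The antiviral effectors included genes high in C57 and genes low there. Ifit3 and Ifit2 belong to a family of proteins that bind viral RNA and are encoded next to each other. Ifit3 read 644 in C57, 430 in 4B(+/+), 430 in 4B(-/-), 423 in 4D(+/+) and 323 in 4D(-/-). Every line was below C57, by 1.52-fold in 4D(+/+) and 1.99-fold in 4D(-/-), and in both 4B lines by a difference of -0.58 on the log2 scale, just short of the 1.5-fold limit. Ifit2 read 468 in C57, 358 in 4B(+/+), 350 in 4B(-/-), 332 in 4D(+/+) and 349 in 4D(-/-). C57 again stood apart, by 1.31-fold to 1.41-fold.

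Their neighbour Ifit1 did not share this order. It read 469 in C57, 559 in 4B(+/+), 515 in 4B(-/-), 487 in 4D(+/+) and 419 in 4D(-/-). C57 lay inside the range of the lines, and 4D(-/-) was lowest for Ifit1 as for Ifit3.

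The oligoadenylate synthetases make the messenger that activates RNase L, and 2 of them, Oas1a and Oas2, were low in C57. Oas1a read 308 in C57, 428 in 4B(+/+), 392 in 4B(-/-), 342 in 4D(+/+) and 289 in 4D(-/-). It was 1.39-fold above C57 in 4B(+/+) and 1.18-fold below its wild-type line in 4D(-/-). Oas2 read 142, 182, 169, 169 and 144 in the same order of strains, with C57 and 4D(-/-) again lowest. The related Oasl2 had another order, at 191 in C57, 203 in 4B(+/+), 170 in 4B(-/-), 173 in 4D(+/+) and 171 in 4D(-/-), and Oasl1 read 69.4 to 70.3.

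Isg20, an RNA exonuclease, was the effector chosen as the brightest of its role. It read 731 in C57, 923 in 4B(+/+), 967 in 4B(-/-), 867 in 4D(+/+) and 751 in 4D(-/-), with C57 and 4D(-/-) below the other arrays. Rsad2, which encodes viperin, had another order. It read 357 in C57, 405 in 4B(+/+), 347 in 4B(-/-), 408 in 4D(+/+) and 488 in 4D(-/-), 1.37-fold above C57 in 4D(-/-). A second Rsad2 probe set over the floor read 120, 122, 102, 125 and 134, with the same highest and lowest arrays and a smaller step of 1.12-fold between 4D(-/-) and C57. Eif2ak2, the kinase PKR, read 212 to 255, and its 3 probe sets over the floor disagreed in sign in 5 of the 6 comparisons that use a wild-type line or C57 as reference.

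**Figure D3:**
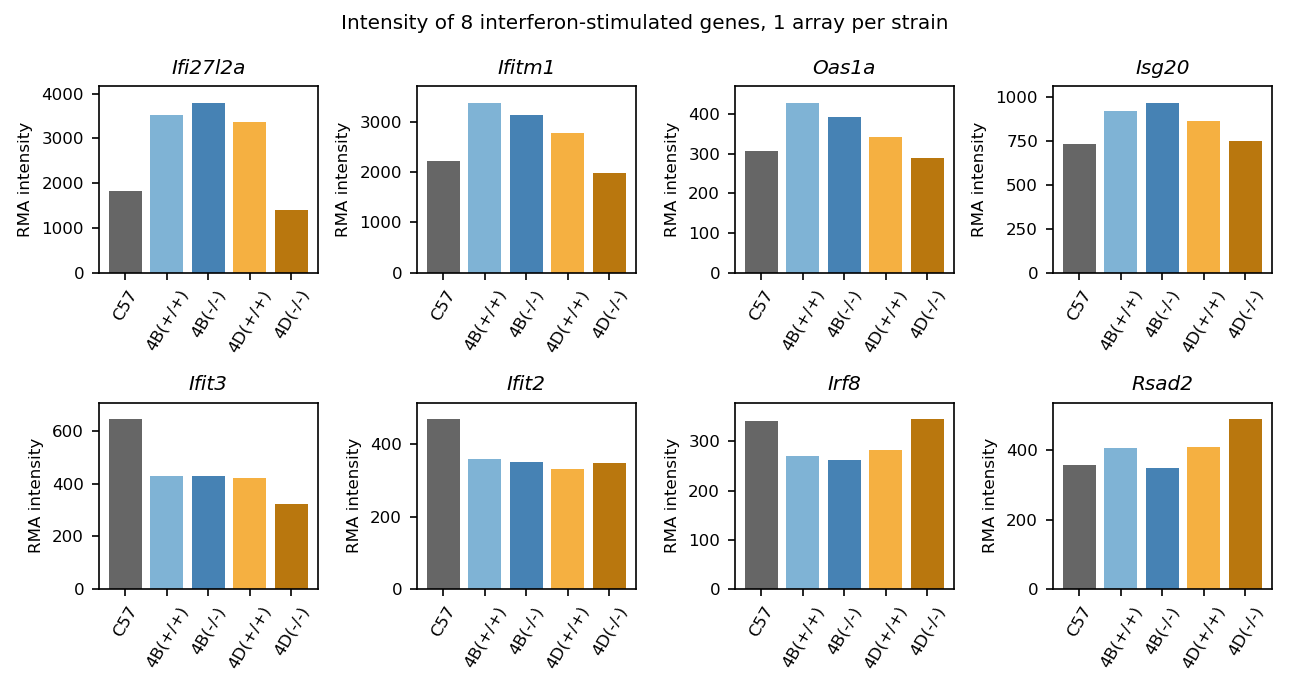
RMA intensity (y axis, from 0) of 8 interferon-stimulated genes in the array of each strain (bars, 1 array each, no error). Ifi27l2a, Ifitm1, Oas1a and Isg20 are lowest in C57 and 4D(-/-), Ifit3 and Ifit2 are highest in C57, and Irf8 and Rsad2 are highest in 4D(-/-).

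The proteins of the IFITM family sit in membranes and hinder viral entry, and only Ifitm1 of the 3 measured reached 1.5-fold between any arrays. Ifitm1 read 2220 in C57, 3370 in 4B(+/+), 3134 in 4B(-/-), 2772 in 4D(+/+) and 1985 in 4D(-/-). It was 1.52-fold above C57 in 4B(+/+), 1.25-fold in 4D(+/+), and 1.40-fold below 4D(+/+) in 4D(-/-). Ifitm3, the brightest of the group, read 5349 in C57, 5091 in 4B(+/+), 4964 in 4B(-/-), 4868 in 4D(+/+) and 5091 in 4D(-/-). Ifitm3 and Ifitm2, at 1422 to 1632, were highest in C57, where Ifitm1 was lower than in every line but 4D(-/-). The promoter windows of Ifitm2 and Ifitm3 hold an ISRE core and that of Ifitm1, printed above, holds none. Those of Oas1a and Bst2, which like Ifitm1 were lowest in C57 and 4D(-/-), also hold an ISRE core. Whether the motif goes with the order of strains was not tested. Bst2, the tetherin that retains budding virus, read 742 in C57, 862 in 4B(+/+), 890 in 4B(-/-), 796 in 4D(+/+) and 727 in 4D(-/-). Its order was that of Ifi27l2a.

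Ifi27l2a, a small interferon-induced protein of the ISG12 family, varied more than any other gene of the 34. It read 1813 in C57, 3525 in 4B(+/+), 3794 in 4B(-/-), 3360 in 4D(+/+) and 1393 in 4D(-/-). The 2 low arrays were C57 and 4D(-/-), and the other 3 lay between 3360 and 3794. Both wild-type lines were above C57, by 1.94-fold in 4B(+/+) and 1.85-fold in 4D(+/+). The 4B(-/-) value was 1.08-fold above its wild-type line, and the 4D(-/-) value 2.41-fold below its own. The 4D(-/-) array was 1.30-fold below C57, so against C57 Ifi27l2a was not called in 4D(-/-).

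Markers of other tissues were uneven across the same arrays. The sum of the 4 thymus markers over the floor, of 5 listed, was 373 in C57, 639 in 4B(+/+), 1197 in 4B(-/-), 618 in 4D(+/+) and 355 in 4D(-/-), the same order of strains as Ifi27l2a. Most of that sum in the low arrays was Cd1d1, at 284 in C57 and 259 in 4D(-/-). Rag1, which rearranges the antigen receptor genes of immature lymphocytes, read 6.57 in C57, 126 in 4B(+/+), 331 in 4B(-/-), 98.1 in 4D(+/+) and 10.6 in 4D(-/-), and Ptcra was under the floor. Dntt read 39.4 in C57 and 47.5 in 4D(-/-), and Ccl25 43.0 and 37.1. Rag1, Dntt and Ccl25 were thus under the floor in both of these arrays. They entered the sum through arrays in which they were high, so the low thymus sums were partly fixed by the floor. The order of C57 and 4D(-/-) in that sum rests on Cd1d1, which was over the floor in every array and lowest in 4D(-/-). The fat sum, over 5 of 6 listed genes, was 3790, 9198, 7100, 11437 and 3124 in the same order of strains. Its low arrays were also C57 and 4D(-/-). The neutrophil sum, over 3 of 6 listed genes, was 5026, 10128, 6809, 11033 and 5306, and Ngp, Camp and Cxcr2 were under the floor. Most of that sum was Ltf, which read 7136 in 4B(+/+) and 3598 in 4B(-/-). S100a8 and S100a9 did not fall there, at 2022 and 970 in 4B(+/+) and 2161 and 1050 in 4B(-/-). The T-cell sum, over 5 of 7 listed genes, was 613, 621, 962, 578 and 594 in the same order of strains. It was highest in 4B(-/-), as the thymus sum was, but lowest in 4D(+/+). The skeletal muscle sum also had another order. It was 2937 in 4B(-/-), where Ifi27l2a was highest, and 3001 in C57, where Ifi27l2a was low. The Gapdh 3' to 5' ratio was also highest in C57 (1.72) and 4D(-/-) (1.77), the arrays in which Ifi27l2a, Ifitm1, Oas1a and Isg20 were lowest and Irf8 was highest. The part of thymus, fat, neutrophils and RNA quality in the values of these genes was not tested.

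**Figure D4:**
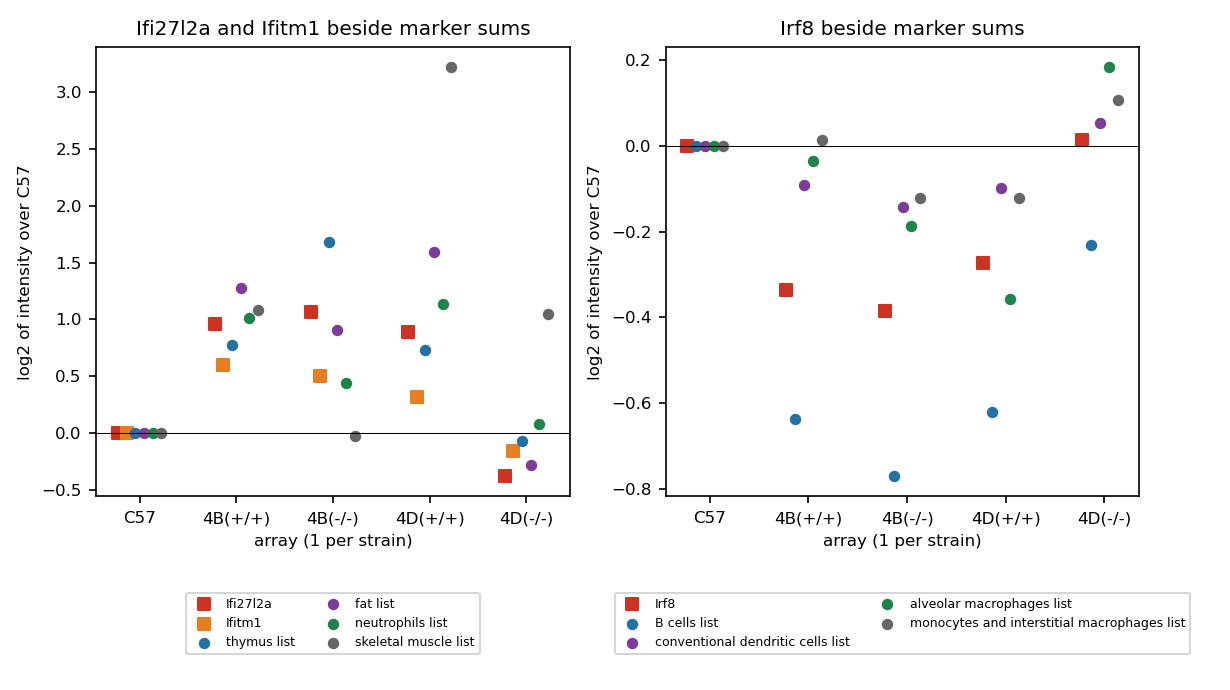
Left, log2 of intensity over C57 for Ifi27l2a and Ifitm1 (squares) beside the summed intensity of 4 marker lists (circles) in each array. Right, the same for Irf8 beside 4 immune marker lists. The thymus and fat sums are lowest in C57 and 4D(-/-), as Ifi27l2a is. In the thymus sum, Rag1, Dntt and Ccl25 are under the floor in both of these arrays. The B-cell sum is higher in C57 and 4D(-/-) than in the other arrays, as Irf8 is.

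Within the remaining groups no ratio of highest to lowest array exceeded 1.39, apart from Ifi27l2a. Usp18, the protease that removes ISG15 from proteins, read 443 in C57, 485 in 4B(+/+), 440 in 4B(-/-), 424 in 4D(+/+) and 354 in 4D(-/-), lowest in 4D(-/-). The immunoproteasome subunit Psmb8 read 990, 1110, 1100, 1017 and 913 in the same order of strains, and its partner Psmb9 read 624 to 710. Psmb8 was thus lowest in 4D(-/-), and Psmb9 was lowest in C57. Rtp4, an interferon-induced receptor transporter, read 921 in C57, 1099 in 4B(+/+), 1068 in 4B(-/-), 988 in 4D(+/+) and 793 in 4D(-/-), 1.24-fold below 4D(+/+). The guanylate-binding proteins coat the vacuoles of intracellular pathogens. The brightest Gbp2 probe set read 1408 in C57, 1270 in 4B(+/+), 1014 in 4B(-/-), 1072 in 4D(+/+) and 1333 in 4D(-/-), but another read 674, 756, 648, 620 and 612. The 2 Gbp2 probe sets agreed that 4B(-/-) was below 4B(+/+), by 1.25-fold and 1.17-fold, and disagreed on 4D(-/-) against 4D(+/+). Gbp3 read 563 to 679, Xaf1 410 to 526, Ifi35 2398 to 2733, Parp14 434 to 482 and Trim30a 368 to 467.

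The comparison of the PDE4B knockout with its own wild-type line asked whether loss of the enzyme went with a change in these genes. At 1.5-fold 0 of the 34 were higher, where 0.383% of all genes were, and 0 were lower, where 0.93% were. The median log2 difference was -0.041, against 0.0087 for all genes, and the values ran from -0.32 for Gbp2 to 0.11 for Irf1. At 1.2-fold, a limit chosen after the values were seen, 0 were higher and 2 were lower, Gbp2 and Dhx58, with a background of 4.55% and 5.52%. Dhx58, at 65.2 in 4B(-/-) and 78.5 in 4B(+/+), lay close to the floor. At 2-fold there were 0 in either direction, against 0.104% and 0.304% of all genes. Counting differences of any size, 22 of the 34 were below the wild type, against 39.8% of all genes.

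For PDE4D, 0 of the 34 were higher at 1.5-fold and 1 was lower, Ifi27l2a, with 1.1% and 4.53% of all genes past the same limits. The share of 34 that was lower was thus near the background. At 1.2-fold 3 were higher, Trim30a, Gbp2 and Irf8, and 4 lower, Ifi27l2a, Ifitm1, Ifit3 and Rtp4, against 9.64% and 16.3% of all genes. Of the 3 higher genes only Irf8 was past 1.2-fold in each of its probe sets, since the second Trim30a probe set differed by 1.04-fold and the second Gbp2 probe set by -0.019 on the log2 scale. At 2-fold 0 were higher and Ifi27l2a was still lower, against 0.209% and 1.51%. As many were above the wild type as below it, 17 each, at any size of difference, and of all genes 45.6% were above and 47.2% below.

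Each wild-type line was set against C57 to describe differences present without a knockout. In 4B(+/+) 2 of the 34 were higher, Ifi27l2a and Ifitm1, against 2.23% of all genes, and 0 were lower, against 1.33%. In 4D(+/+) 1 was higher, Ifi27l2a, against 4.25%, and 1 was lower, Ifit3, against 1.24%. The medians were 0.086 and -0.051 on the log2 scale, where all genes had 0.00 and -0.0032. Both comparisons use the same C57 array. With 1 pooled array per strain, a trait of a line cannot be told apart from the uneven tissue markers given above or from the array.

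At 1.2-fold 5 genes were above C57 in 4B(+/+), with Oas1a, Oas2 and Isg20 beside Ifi27l2a and Ifitm1, against 9.73% of all genes, and 3 were below, Ifit3, Ifit2 and Irf8, against 10.7%. In 4D(+/+) 2 were above, Ifi27l2a and Ifitm1, against 12.9%, and 5 were below, Ifit3, Ifit2, Gbp2, Trim30a and Irf8, against 12.3%. Thus Ifit3, Ifit2 and Irf8 were below C57 in both wild-type lines and Ifi27l2a and Ifitm1 above it. The second probe sets of Gbp2, Trim30a and Irf8 were below C57 in 4D(+/+) by 1.09-fold, 1.18-fold and 1.18-fold, short of the 1.2-fold limit. That of Irf8 was also 1.18-fold below C57 in 4B(+/+). At 2-fold 0 of the 34 were called in 4B(+/+), where 0.835% of all genes were higher and 0.209% lower. The 2-fold count was also 0 in 4D(+/+), where 1.83% were higher and 0.183% lower.

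**Figure D5:**
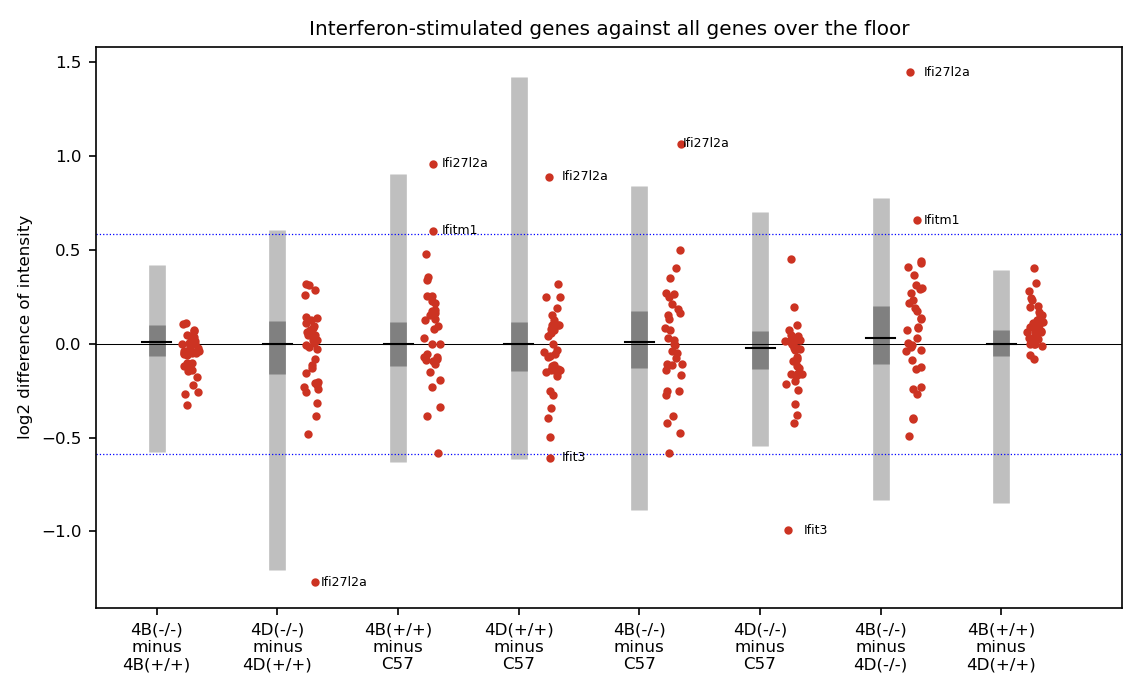
Log2 difference of intensity in 8 comparisons for 34 interferon-stimulated genes (red points) beside all 11500 genes over the floor (light bars, 1st to 99th percentile, dark bars, quartiles, black lines, median). Dotted lines mark 1.5-fold, and the genes past them are named.

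The knockouts were also set against C57 and against each other. In 4B(-/-) 1 gene was above C57, Ifi27l2a at 2.09-fold, with 2.53% of all genes higher and 3.57% lower. In 4D(-/-) 1 was below C57, Ifit3, with 1.37% of all genes higher and 0.791% lower. Between the knockouts, Ifi27l2a and Ifitm1 were higher in 4B(-/-), by 2.72-fold and 1.58-fold, with 2.97% of all genes higher and 2.8% lower. At 1.2-fold, 4B(-/-) had 6 genes above C57 and 5 below, against 15.8% and 14% of all genes, and 4D(-/-) had 1 above, Rsad2, and 4 below, Ifit3, Ifit2, Ifi27l2a and Usp18, against 6.12% and 8.97%. Between the knockouts 10 were higher in 4B(-/-) and 4 lower, the latter Rsad2, Irf8, Gbp2 and Eif2ak2, against 18.8% and 12.2%. The second Gbp2 probe set went the other way, at 648 in 4B(-/-) and 612 in 4D(-/-). The other Eif2ak2 probe sets hardly differed, at 63.4 against 61.4 and 85.2 against 86.1. The second probe sets of Rsad2 and Irf8 were also lower in 4B(-/-). At 2-fold only Ifi27l2a was called in these 3 comparisons, higher in 4B(-/-) than in C57, where 0.687% of all genes were higher and 0.652% lower, and than in 4D(-/-), where 0.391% were higher and 0.496% lower. In 4D(-/-) against C57 the 2-fold count was 0, with 0.339% of all genes higher and 0.2% lower.

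The wild-type lines were also set against each other. At 1.5-fold 0 of the 34 were called, with 0.348% of all genes higher in 4B(+/+) and 1.57% lower, and at 2-fold 0 as well, with 0.0957% and 0.896%. At 1.2-fold 3 were higher, Dhx58, Oas1a and Ifitm1, against 2.9% of all genes, and 0 lower, against 6.1%. Dhx58 rests on weak signal, at 78.5 in 4B(+/+) and 59.4, under the floor, in 4D(+/+). At any size of difference 28 of the 34 were higher in 4B(+/+), 3 were lower and 3 were equal. Of all genes 46.7% were higher there. The differences ran from -0.083 to 0.40 on the log2 scale, with a median of 0.088.

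The rest of the pathway was read through lists of other genes. Of 9 interferon genes listed 5 were measured, and all 5, among them Ifnb1 at 10.7 to 11.8 and Ifng at 9.33 to 14.0, were under the floor in every array. Of 9 receptors, kinases and related genes over the floor and of 11 sensors and adaptors, 0 passed 1.5-fold in either knockout comparison or in either wild-type line against C57. The same was true of 10 genes of MHC class I presentation. Of all genes 0.383% were higher and 0.93% lower in the PDE4B knockout comparison, and 1.1% and 4.53% in the PDE4D one. Against C57 the shares were 2.23% and 1.33% in 4B(+/+) and 4.25% and 1.24% in 4D(+/+). In lists this short a count of 0 lies near these shares. Of 8 negative regulators 1, Socs3, was higher in 4D(-/-) than in 4D(+/+), where 1.1% of all genes were. It encodes an inhibitor of JAK signalling for cytokines of the interleukin-6 group. Socs3 read 726 in C57, 746 in 4B(+/+), 555 in 4B(-/-), 746 in 4D(+/+) and 1254 in 4D(-/-), 1.68-fold above 4D(+/+).

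Of 26 further interferon-induced genes over the floor, 2 were higher in 4B(+/+) than in C57, Gbp6 and Cxcl9, against 2.23% of all genes, and 1 in 4D(+/+), Gbp6, against 4.25%. Gbp6, a guanylate-binding protein, read 378 in C57, 708 in 4B(+/+), 581 in 4B(-/-), 574 in 4D(+/+) and 581 in 4D(-/-), so C57 was below every line. It was 1.87-fold above C57 in 4B(+/+) and 1.52-fold in 4D(+/+). Cxcl9, a chemokine induced by interferon gamma, read 71.6 in 4B(+/+) and 47.2 to 52.6 elsewhere, under the floor. Cxcl9 thus entered the list through the array in which it was called, and its count carries no weight. In the knockout comparisons 0 of the 26 passed 1.5-fold. Of all genes 0.383% were higher and 0.93% lower for PDE4B, and 1.1% and 4.53% for PDE4D.

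Probe sets of the same gene test the probes and not the strains, since they share the RNA and the array. Of the 34 genes 8 had more than 1 probe set over the floor. All probe sets of a gene had the same sign in 6 of these 8 for the PDE4B knockout comparison and in 5 of 8 for the PDE4D comparison. The widest disagreement in those comparisons was 1.11-fold for Irf8 and 1.26-fold for Gbp2. Against C57 the sign was shared in 4 of 8 for 4B(+/+), 5 of 8 for 4D(+/+), 5 of 8 for 4B(-/-) and 6 of 8 for 4D(-/-). The widest disagreement against C57 was 1.34-fold, for Gbp2 in 4B(-/-). Ifi27l2a, Ifitm1 and Ifit3 have 1 probe set each and could not be checked in this way.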

How the data were processed

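Whole-lung RNA of 5 strains was hybridised to 1 array each. The authors deposited 1 linear intensity per probe set and array, made with RMA per the submitters' processing notes. The RMA version and the genome build of the probe sets were not given in the sources used here. RMA makes the distributions of arrays equal, and 59.7% of probe sets have tied arrays, so small differences can be set to 0.

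Intensities were converted to log2. Of the probe sets 34958 have 1 gene symbol, 932 several and 9211 none, and the first kind was used. A gene was represented by its brightest probe set over the 5 arrays, with a floor of log2 6 in the highest array. With 1 array per strain there is no test, and precision is limited by how few arrays there are. Folds were compared with all genes over the floor in 8 comparisons. Counting was checked on simulated data.

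Genes named with every value were those past 1.5-fold in any comparison, the 8 with the widest ratio and the brightest of each role. Irf8, Ifit1, Oas2, Bst2 and the second probe sets were added after their values were seen, as was the 1.2-fold limit. Oasl2 was also given with every value, outside these rules. The genes, lists and comparisons were chosen with earlier results of these data known. Alternatives were other floors, the median of probe sets, a fold of 2, centring on the median and cyclic loess (limma 3.58.1). Python 3.11.15 and pandas 2.3.3 were used. RefSeq (GRCm38.p6) gave the promoter sequences.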

Additional observations from a re-analysis of the deposited data

Results flagged for a closer look

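Ifi27l2a was lower in the knockout array of the 4D line and hardly differed in that of the 4B line. The log2 difference from the wild-type line was 0.11 in 4B(-/-) and -1.27 in 4D(-/-). The 4B(-/-) value was not called and lay near the median size of difference over all genes in that comparison, 0.085. The flag asked only for unlike signs with a value past 1.5-fold. Each value comes from 1 array per strain, and the difference between the lines was not tested.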

How the results depend on the processing

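The list medians moved by at most 0.038 on the log2 scale in the 8 comparisons under other floors, probe set medians, cyclic loess and centring. Of 9 gene values past 1.5-fold, which belong to Ifi27l2a, Ifitm1 and Ifit3, 0 changed sign in 45 alternatives and 2 slipped under the limit, Ifitm1 in 4B(+/+) against C57 with centring (0.58) and Ifit3 in 4D(+/+) against C57 with cyclic loess (-0.58). With the median of probe sets 6 values of 10 genes followed moved by more than the median size of difference over all genes, 5 of Gbp2 and 1 of Rsad2, and kept their sign except Gbp2 in 4B(+/+) against C57 (0.0089 in place of -0.15), which was not called. Gbp2 in 4D(-/-) against 4D(+/+) then stood at 0.15, under 1.2-fold. Counts of genes moved where values lie near the limit. With centring, 4B(+/+) against C57 had 1 gene higher and 1 lower, and 4B(-/-) against C57 had 1 lower. With cyclic loess, 4B(-/-) against C57 had 1 lower and 4D(+/+) against C57 had 0 lower. With a fold of 2, 4B(+/+) and 4D(+/+) against C57 had 0 higher, 4D(+/+) and 4D(-/-) against C57 had 0 lower, and 4B(-/-) against 4D(-/-) had 1 higher. These shifts follow from values within a few hundredths of log2 of the limit or from the higher limit itself. No paired analysis was possible because each strain has 1 array.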
